A study of Mus musculus with 135 samples.

Results

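The 67 genes described here encode heat shock proteins, DnaJ co-chaperones and 4 of their regulators. They are all genes of the read count table whose symbols start with Hspa, Hspb, Hspd, Hspe, Hsph, Hsp90, Dnaja, Dnajb or Dnajc, together with *Hsf1*, *Hsf2*, *Bag1* and *Bag3*, out of 15181 genes in all. The genes *Hspbap1* and *Hspbp1*, pseudogenes and entries that join several genes were left out. All 67 had a read in at least 1 of the cells used. They were measured in haematopoietic stem cells (HSCs), sorted from bone marrow as 7AAD-negative, lineage-negative, Sca-1+, c-Kit+, CD150+ and CD48-. The cells came from 1 young mouse, aged 2 to 3 months, and 1 old mouse, aged 20 to 25 months, both C57BL/6 and both carrying a *Vwf*-eGFP reporter transgene, a bacterial artificial chromosome that marks cells with *Vwf* promoter activity. Each cell was captured on a C1 microfluidic chip, its polyadenylated RNA was copied and amplified, and its library was sequenced on its own. Of 61 young and 74 old cells, 52 and 62 passed the quality limits and are used below.

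Chaperones keep proteins folded. HSP70 proteins bind exposed stretches of unfolded chains in a cycle of ATP hydrolysis that DnaJ proteins start and nucleotide exchange factors of the HSP110 and BAG families end, HSP90 proteins finish and stabilise clients such as kinases and receptors, chaperonins enclose a chain in a chamber, and small heat shock proteins hold unfolded chains without ATP. Some members are made at all times, whereas others are induced by the transcription factor HSF1 when unfolded protein accumulates. The endoplasmic reticulum and the mitochondria hold members of their own. HSCs divide rarely and make protein at a low rate, and protein quality is considered a requirement for their self-renewal.

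Counted reads ran from 273236 to 5688706 per young cell and from 276316 to 4086659 per old cell, with between 2973 and 5600 genes expressed per young cell and between 2964 and 6267 per old cell. The level of a gene in a cell is log2(CPM + 1), where CPM is its counts per 1000000 counted reads of that cell, and a gene counted as expressed in a cell above a level of 2. A difference is the mean level over old cells minus that over young cells, and was called where it reached 1 in size. Of the markers of HSCs, *Kit* was expressed in 49 young and 61 old cells, *Hlf* in 49 and 55, *Mecom* in 43 and 40, *Ly6a* in 28 and 43, *Procr* in 11 and 24 and *Slamf1* in 9 and 15, and *Cd48*, which the sort removes, in 1 young and 0 old cells. Erythroid genes were expressed in 2 young and 0 old cells, myeloid genes in 13 and 5, T cell genes in 19 and 19, a B cell gene in 12 and 16 and platelet genes in 18 and 35. The libraries also differed in *Xist* (50 of 52 young and 8 of 62 old cells) and in Y-linked *Ddx3y* (0 and 38 cells). Age can therefore not be told apart from the mouse, its sex-linked genes or a capture run, which the labels do not name. With 1 mouse per age no difference has a replicate check, no p-value is given, and every 95% interval below is exact and covers counting error only.

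The regulatory sequence of a few members is shown because heat shock and unfolded protein are known to act on such genes through sites close to their starts. The sequences are those of RefSeq on GRCm38.p6, read 5′ to 3′ on the strand given, and capitals mark the motif searched. *Hspd1* and *Hspe1*, which encode both parts of the mitochondrial chaperonin, are transcribed away from each other from starts at positions 55087932 and 55088148 of chromosome 1, with 215 bases between the starts. The shared stretch printed first lies at chr1:55088025-55088131 on the plus strand and carries a run of heat shock elements, the sites bound by heat shock factors. *Hspa1b* (chr17:34959239-34959368, minus strand) and *Dnaja1* (chr4:40722318-40722467, plus strand) each carry 1 pair of half-sites in head-to-head order. In the 150 bases before the start of *Dnajb1* (chr8:83608025-83608174, plus strand) neither order of half-sites was found.
Hspd1 and Hspe1: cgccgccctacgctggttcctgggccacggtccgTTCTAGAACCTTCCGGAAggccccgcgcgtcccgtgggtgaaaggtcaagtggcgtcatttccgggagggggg
Hspa1b: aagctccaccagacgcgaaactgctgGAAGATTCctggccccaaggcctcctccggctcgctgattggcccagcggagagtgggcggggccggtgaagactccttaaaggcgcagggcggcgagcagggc
Dnaja1: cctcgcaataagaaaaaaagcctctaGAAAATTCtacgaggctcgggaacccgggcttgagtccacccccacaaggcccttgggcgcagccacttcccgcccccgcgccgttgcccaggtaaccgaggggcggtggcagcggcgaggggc
Dnajb1: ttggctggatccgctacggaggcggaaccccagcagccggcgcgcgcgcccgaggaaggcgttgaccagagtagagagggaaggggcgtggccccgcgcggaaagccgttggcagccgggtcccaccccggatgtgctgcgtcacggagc

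The capitals mark GAANNTTC and TTCNNGAA, which read the same on both strands and can overlap within a longer run. Promoters were taken as 250 bases before to 50 bases after each start, and 55 of the 67 members had at least 1 such sequence, 72 in all. GAANNTTC occurred in 19.4% of the 72 and in 7.86% of all 32851 promoters, and TTCNNGAA in 11.1% and 8.52%. A run of 3 half-sites (GAA and TTC in turn, with 2 bases between neighbours, searched on both strands) occurred in 8.33% of the 72 and in 0.603% of all promoters, and the members that held it were *Dnajb6*, *Hspd1*, *Hspe1* and *Hsph1*. The runs of *Hspd1* and *Hspe1* are the same shared stretch, and those of *Dnajb6* and *Hsph1* each lie in overlapping windows of 1 gene. The same site was thus counted more than once among the 72, which can also occur among all promoters. A match of letters is a description that says nothing of binding in these cells, and where none was found only these letters are absent from the window.

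A second set shows the endoplasmic reticulum stress element, CCAAT and CCACG with 9 bases between them, searched on both strands. It was found in the promoters of *Hspa5*, *Hsp90b1* and *Dnajc3*, that is in 4.17% of the 72 and in 0.119% of all promoters, and is shown for the main chaperones of that compartment. The *Hspa5* piece lies at chr2:34772020-34772049 on the plus strand, and the *Hsp90b1* piece, which holds the element in both orientations, at chr10:86705510-86705664 on the minus strand.
Hspa5: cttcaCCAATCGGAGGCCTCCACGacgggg
Hsp90b1: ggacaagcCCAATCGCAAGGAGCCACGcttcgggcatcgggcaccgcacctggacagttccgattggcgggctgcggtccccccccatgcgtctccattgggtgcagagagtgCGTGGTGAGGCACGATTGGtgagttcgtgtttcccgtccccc

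As a group, the chaperone genes took a similar share of the reads at both ages, while single members moved both ways. The 67 genes held 1.13% of all counted reads of the young and 1.11% of those of the old cells. Per cell the share was 0.495% at the lowest, 1.12% at the median and 2.04% at the highest in young cells, and 0.464%, 1.12% and 2.09% in old cells. The median cell expressed 22 of the 67 genes when young (range 12 to 32) and 21 when old (range 13 to 32), and 23 at both ages after every cell was thinned to 250000 reads. The ages therefore overlapped almost completely in both measures. Of the members, 20 were expressed in at least 50% of young cells and 15 in at least 50% of old cells, 14 of them at both ages, whereas 15 were expressed in at most 5 cells of each age.

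Old cells had a higher mean level for 36 members and a lower one for 31, with a median difference of 0.07 over the members and -0.02 over the 15014 genes with a read. Old cells were higher by at least 1 for 4 members (*Dnajb1*, *Hspa4*, *Hspd1* and *Dnajc7*), or 5.97%, against 3.91% of all genes. They were lower by at least 1 for 7 members (*Dnajc2*, *Dnajc9*, *Dnaja1*, *Hsf2*, *Hsp90b1*, *Dnajc1* and *Dnajc18*), or 10.4%, against 4.49% of all genes. Among the 9374 genes, 49 members included, that at least 10% of the cells expressed, 6.24% were higher and 6.98% lower by that amount. In either direction 8.40% of all genes were past the limit. In the cells that expressed none of 4 cell cycle genes (*Cdk1*, *Ccna2*, *Ccnb1* and *Cdc25c*), 7 of the 66 members with a read were higher, against 7.75% of all genes, and 4 lower, against 4.29%. Shares of expressing cells had intervals that did not overlap for *Dnajb1*, higher in old cells, and for *Dnajc2* and *Dnajc9*, lower, whereas 0.899% and 0.733% of all genes did so in these directions. Among cells with at least 1000000 mapped reads (50 young and 57 old), the intervals of *Dnajb1* and *Dnajc2* overlapped and those of *Dnajc9* and *Hsf2* did not. In all 61 young and 74 old cells, those of *Dnajb1* and *Hsf2* did not overlap and those of *Dnajc2* and *Dnajc9* did. The share of all genes with separate intervals was not computed for these sets of cells.

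**Figure D1:**
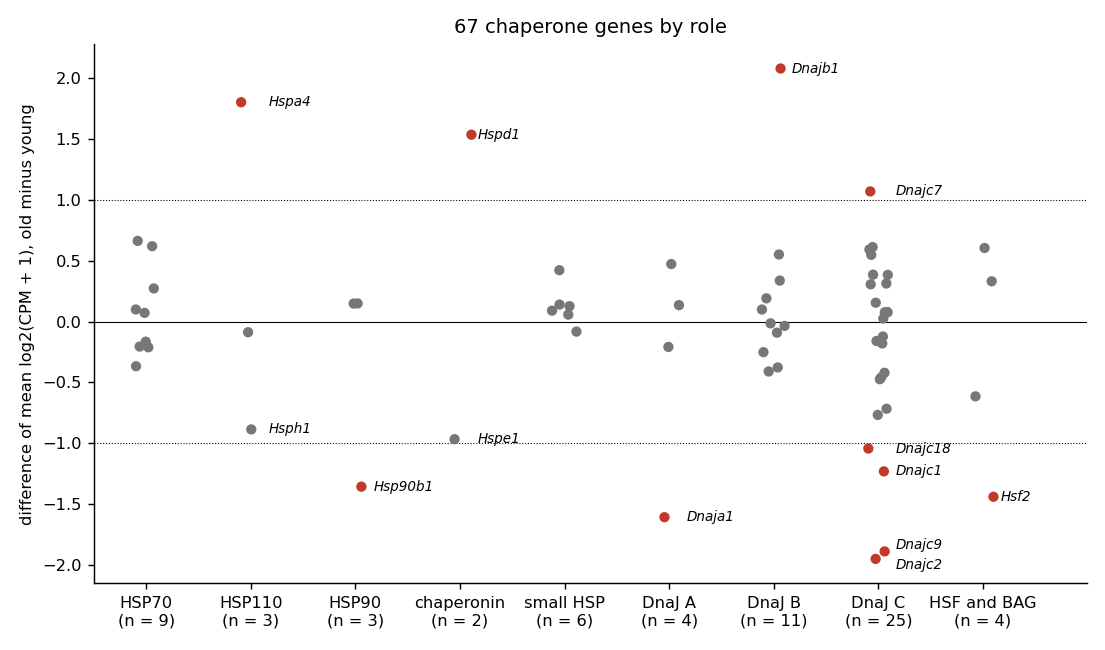
Difference in mean level, log2(CPM + 1), old minus young, for the 67 chaperone genes grouped by role, with 52 young and 62 old cells of 1 mouse each. Each point is 1 gene, the dotted lines mark a difference of 1 in size, and red points are the 11 genes past it, from -1.95 for *Dnajc2* to 2.08 for *Dnajb1*.

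Among the HSP70 genes, *Hspa8*, the constitutive cytosolic HSP70 (chr9:40801276-40805202), was the highest member per kilobase of exon at both ages. Its level ran from 8.08 over a median of 11.50 to 12.74 in young cells and from 5.49 over 11.29 to 12.81 in old cells. All cells of both ages expressed it, the ranges overlapped over most of their length, and the means differed by -0.21. Per kilobase of exon, its mean was 1221 CPM in young and 1186 CPM in old cells.

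*Hspa1b*, the classical heat-inducible HSP70 gene whose promoter is shown above, was close to absent. It had 1 read in the young cells and 99 reads in the old cells, of which 96.0% came from 1 cell. It was expressed in 0 of 52 young cells, which allows a share of up to 5.77% by the limit of 3 cells used for a count of 0 and of up to 6.85% by the exact interval, whereas 1 of 62 old cells expressed it (1.61%, interval 0.0408% to 8.66%). The neighbouring gene of near-identical coding sequence, *Hspa1a*, was not analysed here, and with 1 alignment kept per read the authors' mapping may have placed reads of the pair at either gene.

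The main HSP70 genes of the endoplasmic reticulum and the mitochondria, *Hspa5* and *Hspa9*, were expressed in most cells. *Hspa5*, the HSP70 of the endoplasmic reticulum (chr2:34772090-34776529), had a level of 0.00 at the lowest, 6.63 at the median and 11.26 at the highest in young cells and 0.00, 6.61 and 11.20 in old cells, with 39 of 52 and 50 of 62 cells expressing it. The ages could not be separated for it, and its means differed by 0.27. *Hspa9*, the mitochondrial HSP70, was expressed in 39 young and 43 old cells, and its mean level was 5.29 in young and 4.92 in old cells. Its direction depended on the summary, because the log2 ratio of summed counts was 0.34 in favour of old cells, and on the cells compared, because the difference was 1.04 in the cells without cell cycle genes.

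The other HSP70 genes were expressed in fewer cells. *Hspa13*, of the endoplasmic reticulum, had mean levels of 0.64 and 1.30 (4 and 8 cells), and *Hspa14*, a ribosome-bound HSP70, 2.68 and 3.30 (20 and 31 cells). *Hspa2*, known for its role in the testis, was expressed in 8 and 9 cells. *Hspa12a* was expressed in 0 young cells and 1 old cell and *Hspa12b* in 6 and 5. None of the 9 HSP70 genes was called in either direction, against 8.40% of all genes, and their differences ran from -0.37 to 0.66. In the cells without cell cycle genes *Hspa14* (1.72) and *Hspa9* (1.04) were past the limit, where 7.75% of all genes were higher by at least 1.

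In the HSP110 group, the exchange factors of HSP70, *Hspa4* (chr11:53259814-53300479) was higher in old cells. Its level was 0.00 at the lowest, 3.32 at the median and 9.89 at the highest in young cells and 0.00, 6.05 and 10.87 in old cells. Both ages thus spanned the whole range from no reads to high levels, and more of the old cells were high. It was expressed in 57.7% of young cells (30 of 52, interval 43.2% to 71.3%) and 77.4% of old cells (48 of 62, interval 65% to 87.1%), with means of 3.69 and 5.50 and a difference of 1.80. By summed counts the difference was smaller, with a log2 ratio of 0.86.

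*Hsph1*, the stress-inducible HSP110 gene, was expressed in 11 young cells (21.2%, interval 11.1% to 34.7%) and 3 old cells (4.84%, interval 1.01% to 13.5%). Its median level was 0.00 at both ages, and the highest cells reached 7.67 and 9.53. A single old cell held 95.8% of its 1514 old reads, so that the log2 ratio of summed counts was -0.16 with that cell and -4.08 without the highest cell of each age, while the difference of mean levels was -0.89. In the cells without cell cycle genes 3 of 25 young and 3 of 49 old cells expressed it, and the difference was -0.19. In the cells with at least 1 of them, 8 of 27 young and 0 of 13 old cells did, with a difference of -1.72. The third member, *Hspa4l*, was expressed in 14 young and 17 old cells, with a difference of -0.09.

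Of the HSP90 genes, the cytosolic pair was abundant and alike at both ages. *Hsp90ab1*, the constitutive form (chr17:45567778-45573261), was expressed in all cells, with a level of 3.85 at the lowest, 11.38 at the median and 12.60 at the highest in young cells and 8.65, 11.34 and 12.71 in old cells. *Hsp90aa1*, the form with the stronger heat response (chr12:110691036-110696395), had a median level of 9.36 in young and 9.32 in old cells and was expressed in 51 of 52 and 62 of 62 cells. Each differed in mean by 0.15. *Hspa8*, *Hsp90ab1* and *Hsp90aa1* together held 61.4% of the chaperone reads of the median young cell and 57.2% of those of the median old cell, with ranges of 22.8% to 84.5% and 28.1% to 82.9%.

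*Hsp90b1*, the HSP90 of the endoplasmic reticulum (chr10:86690841-86705444), was lower in old cells. Its level was 0.00 at the lowest, 7.45 at the median and 10.61 at the highest in young cells, and 0.00, 5.76 and 10.69 in old cells. The cells of the ages overlapped over the whole range, and nearly as many expressed it (47 of 52 and 51 of 62). The means were 6.89 and 5.53, a difference of -1.36, whereas the log2 ratio of summed counts was -0.45. The difference of means was -0.69 in cells without cell cycle genes and -1.23 in the 27 young and 13 old cells with at least 1 of them. Up to 270 bases of its exons overlap a gene of the table on the opposite strand, and no source used here says whether strand was counted. *Hspa5*, which carries the same stress element, differed by 0.27 in the other direction, as given above.

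**Figure D2:**
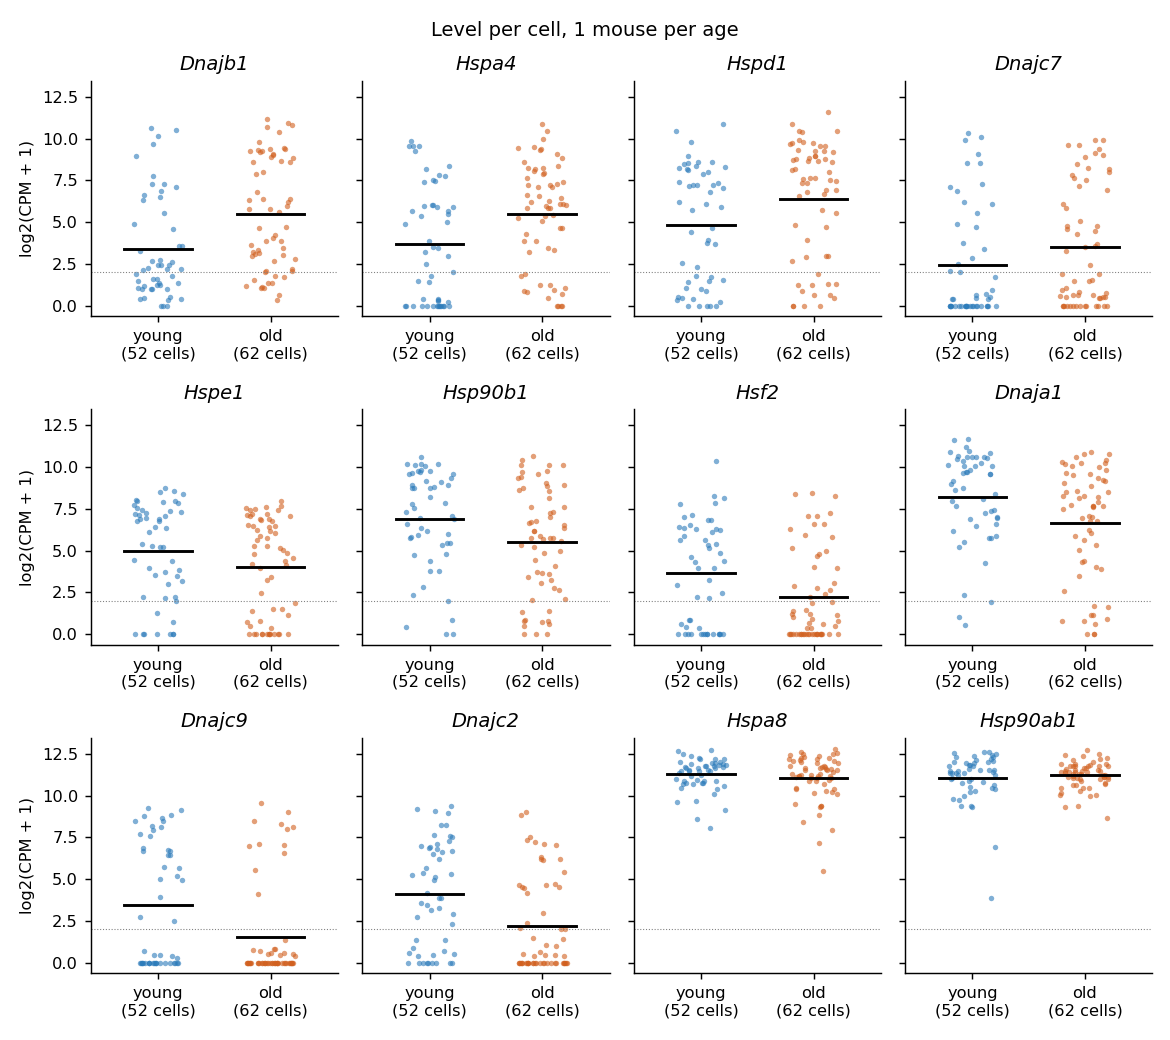
Level per cell, log2(CPM + 1), of 12 chaperone genes in 52 young (blue) and 62 old (orange) cells of 1 mouse each. Each point is 1 cell, the black bar is the mean and the dotted line marks the limit of 2 for an expressing cell. All ranges overlap. The *Dnajb1* mean is 3.41 in young and 5.49 in old cells, and *Hspa8* lies near 11 at both ages.

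The chaperonin pair, which shares the promoter stretch printed first, differed in opposite directions. *Hspd1*, encoding the chamber protein HSP60 (chr1:55077833-55088243), had a level of 0.00 at the lowest, 5.83 at the median and 10.89 at the highest in young cells and 0.00, 7.57 and 11.61 in old cells. *Hspe1*, encoding its lid HSP10 (chr1:55088148-55091317), had 0.00, 5.76 and 8.75 in young cells and 0.00, 4.83 and 7.98 in old cells. Old cells were thus shifted up for *Hspd1* and slightly down for *Hspe1*, within ranges that overlapped.

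*Hspd1* was expressed in 65.4% of young cells (34 of 52, interval 50.9% to 78.0%) and 79.0% of old cells (49 of 62, interval 66.8% to 88.3%), with a difference of 1.54 between means of 4.83 and 6.36. *Hspe1* was expressed in 82.7% of young cells (43 of 52, interval 69.7% to 91.8%) and 64.5% of old cells (40 of 62, interval 51.3% to 76.3%), with a difference of -0.97 between means of 4.97 and 4.01, just inside the limit for a call. Within a cell, CPM per kilobase of exon was higher for *Hspd1* than for *Hspe1* in 19 young and 39 old cells and lower in 31 young and 21 old cells. Both genes were expressed together in 30 young and 34 old cells. The summed reads per kilobase of *Hspd1* were 0.526 times those of *Hspe1* in young cells and 2.06 times in old cells.

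Across cells of 1 age, the levels of the pair were unrelated, with a Spearman rho of 0.01 in young and -0.05 in old cells. Per kilobase of exon, the mean was 77.0 CPM for *Hspd1* and 132 CPM for *Hspe1* in young cells, and 162 and 74.2 CPM in old cells. The order of the pair per length was therefore reversed between the ages. The annotation gives *Hspd1* a further start inside *Hspe1*, and it names 5 pseudogenes for *Hspd1* and 6 for *Hspe1*, so that reads of the copies may have been assigned to either place. The part of these in the values was not tested.

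**Figure D3:**
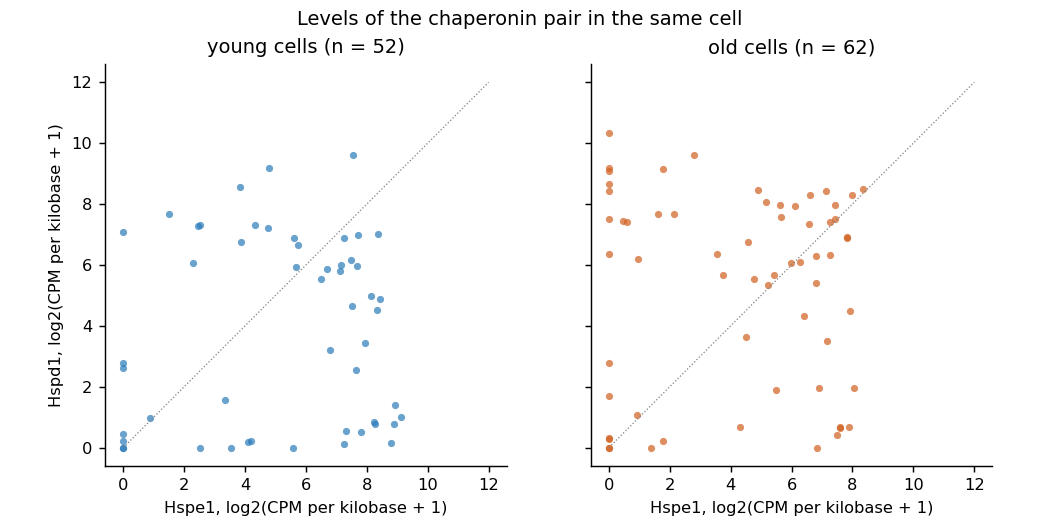
Level of *Hspd1* against that of *Hspe1* in the same cell, both as log2(CPM per kilobase of exon + 1), for 52 young cells (left) and 62 old cells (right) of 1 mouse each. Each point is 1 cell and the dotted line marks equal levels. In young cells 19 points lie above the line and 31 below it, and in old cells 39 and 21.

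The small heat shock protein genes contributed few reads. *Hspb1*, encoding HSP27 and strongly heat-inducible in other cells, had 0 reads in young cells and 6 reads in 1 old cell, so it was expressed in 0 of 52 young cells, which allows up to 5.77% by the limit of 3 cells (6.85% by the exact interval), and in 1 of 62 old cells. *Hspb9* had 0 young reads and 729 old reads, 99.7% of them in 1 cell, and *Hspb8* was expressed in 1 cell of each age. *Hspb6* was expressed in 1 young and 6 old cells and *Hspb11*, a component of intraflagellar transport, in 10 and 14. *Hspb7* had reads in 51 of 52 young and 60 of 62 old cells, with a median level of 1.85 and 1.78, and in no cell more than 26 reads (young) or 35 reads (old). Differences of the 6 genes lay between -0.08 and 0.42.

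Of the 4 DnaJ proteins of type A, which carry the full domain set of the bacterial DnaJ, *Dnaja1* (chr4:40722468-40734965) was lower in old cells. Its level was 0.58 at the lowest, 9.10 at the median and 11.70 at the highest in young cells, and 0.00, 7.67 and 10.88 in old cells. Most cells of both ages expressed it, 49 of 52 young (94.2%, interval 84.1% to 98.8%) and 51 of 62 old cells (82.3%, interval 70.5% to 90.8%). The mean was 6.63 in old and 8.24 in young cells, a difference of -1.61. This went with both a lower share of expressing cells and lower levels among them, which averaged 8.67 in young and 7.89 in old cells. The log2 ratio of summed counts was -1.05. Its exons overlap those of *Smu1* on the opposite strand by up to 608 bases.

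The other type A genes were not called. *Dnaja2*, a second cytosolic partner of HSP70, was expressed in 28 young and 37 old cells with a difference of 0.14, and *Dnaja3*, of the mitochondria, in 17 and 23 cells with a difference of 0.47. *Dnaja4* was expressed in 2 young cells and 1 old cell.

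Among the 11 DnaJ genes of type B, *Dnajb1* (chr8:83608175-83612653), encoding HSP40, the partner of HSP70 that rises with it in heat shock, had the largest difference of all members. Its level was 0.00 at the lowest, 2.22 at the median and 10.65 at the highest in young cells, and 0.32, 5.18 and 11.18 in old cells. Young cells were mostly near or under the limit for expression with a minority high, whereas most old cells lay above it, and the ranges overlapped throughout. It was expressed in 55.8% of young cells (29 of 52, interval 41.3% to 69.5%) and 82.3% of old cells (51 of 62, interval 70.5% to 90.8%), and in 30 and 52 cells after thinning.

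The *Dnajb1* mean was 3.41 in young and 5.49 in old cells, a difference of 2.08, which ranked 80 from the highest among the 15014 genes. The log2 ratio of summed counts was 1.14. Immediate-early genes, a set of 19 genes such as *Fos* and *Egr1* that respond within minutes to signals, moved in the same direction, with a median summed level of 4685 CPM per young cell (range 405 to 13435) and 10486 CPM per old cell (range 468 to 22991), and 9 of the 19 were higher and 2 lower by at least 1, against 3.91% and 4.49% of all genes. All 19 had a read at both ages. Their part in the *Dnajb1* difference was not tested.

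The *Dnajb1* difference lay in the cells without cell cycle gene expression. At least 1 of the 4 cell cycle genes was expressed in 27 young and 13 old cells. Of these, 19 young (70.4%, interval 49.8% to 86.2%) and 10 old cells (76.9%, interval 46.2% to 95%) expressed *Dnajb1*, with mean levels of 5.04 and 4.65. Of the cells that expressed none of the 4 genes, 10 of 25 young (40%, interval 21.1% to 61.3%) and 41 of 49 old cells (83.7%, interval 70.3% to 92.7%) expressed it, with mean levels of 1.65 and 5.71, a difference of 4.06. Young cells thus had a high *Dnajb1* level mainly where cell cycle genes were expressed, and old cells had it in both sets. Since this split of the text was chosen with the values in view, it is a description.

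Most other type B genes differed little. *Dnajb6*, a suppressor of protein aggregation whose promoter holds a run of 3 half-sites, was expressed in 40 young and 42 old cells with a difference of -0.41. In the endoplasmic reticulum, *Dnajb9* was expressed in 17 and 21 cells, *Dnajb11* in 16 and 18, *Dnajb12* in 8 and 16 and *Dnajb14* in 3 and 1, with differences of 0.34, 0.10, 0.55 and -0.25. *Dnajb4*, a relative of *Dnajb1*, was expressed in 13 and 18 cells with a difference of 0.19. *Dnajb2* was expressed in 5 and 3 cells, and *Dnajb3*, *Dnajb5* and *Dnajb13* in at most 2 cells of either age.

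The type C genes, which share only the J domain and often have particular tasks, made up 25 of the 67 members. Of these 1 was called higher (4%, against 3.91% of all genes) and 4 lower (16%, against 4.49%). *Dnajc2*, encoding a ribosome-associated factor that helps HSP70 receive new chains (chr5:21757266-21785264), had the lowest difference of all members. Its level was 0.00 at the lowest, 4.04 at the median and 9.38 at the highest in young cells, and 0.00, 0.46 and 9.0 in old cells. It was expressed in 67.3% of young cells (35 of 52, interval 52.9% to 79.7%) and 38.7% of old cells (24 of 62, interval 26.6% to 51.9%), with a difference of -1.95 and a log2 ratio of summed counts of -1.90. Its values were similar in the cells without cell cycle genes, where 17 of 25 young and 18 of 49 old cells expressed it and the difference was -1.76.

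*Dnajc9*, a co-chaperone of histones H3 and H4 (chr14:20384638-20388910), had a level of 0.00 at the lowest, 1.6 at the median and 9.27 at the highest in young cells and 0.00, 0.00 and 9.56 in old cells. It was expressed in 50% of young cells (26 of 52, interval 35.8% to 64.2%) and 19.4% of old cells (12 of 62, interval 10.4% to 31.4%), and the difference was -1.89. Cells with and without cell cycle genes differed here too. Among cells that expressed at least 1 of the 4 cell cycle genes, 17 of 27 young and 4 of 13 old cells expressed *Dnajc9*. The difference there was -2.17. Among the rest 9 of 25 and 8 of 49 expressed it, with a difference of -0.85, below the limit for a call.

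The other called type C genes were *Dnajc1*, *Dnajc18* and *Dnajc7*. *Dnajc1*, of the endoplasmic reticulum, was expressed in 30 young and 22 old cells with median levels of 2.93 and 0.63, a difference of -1.23 and a log2 ratio of summed counts of -1.75. *Dnajc18* was expressed in 15 and 8 cells with medians of 0.00 and a difference of -1.04, just past the limit, and 1 young cell held 73.3% of its young reads. Its difference was -0.21 in the cells without cell cycle genes and -1.55 in those with at least 1 of them. It lay between -0.98 and -0.81, short of the limit, in all cells, in cells with at least 1000000 mapped reads and after thinning. The same held with library size factors by the TMMwsp method and without the cell with most reads in each age. *Dnajc7*, which also binds HSP90, was expressed in 19 and 30 cells with medians of 0.45 and 1.91 and a difference of 1.07, which was 0.50 when all 61 young and 74 old cells were used, 0.88 with at least 1000000 mapped reads and 0.85 in the cells without cell cycle genes. Exons of *Dnajc1* and *Dnajc7* overlap genes on the opposite strand by up to 365 and 287 bases.

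The remaining 20 type C genes had differences from -0.77 (*Dnajc21*) to 0.61 (*Dnajc3*). *Dnajc3*, an inhibitor of the stress kinase PERK, was expressed in 19 young and 29 old cells, but 1 young cell held 60% of its young reads and the log2 ratio of summed counts was -0.13. *Dnajc8*, a splicing factor, was expressed in 43 and 47 cells with a difference of -0.42, and *Dnajc5*, a chaperone of vesicles, in 27 and 30 cells with a difference of -0.46. *Dnajc19*, of the mitochondrial import motor, was expressed in 26 and 27 cells with a difference of 0.08. *Dnajc10*, *Dnajc24*, *Dnajc27* and *Dnajc17* were higher in old cells by 0.55, 0.59, 0.39 and 0.38, and *Dnajc11* and *Dnajc30* lower, with differences of -0.72 and -0.47. *Dnajc6*, *Dnajc14*, *Dnajc4*, *Dnajc28*, *Dnajc16*, *Dnajc25*, *Dnajc13*, *Dnajc15* and *Dnajc12* lay between -0.18 and 0.31.

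**Figure D4:**
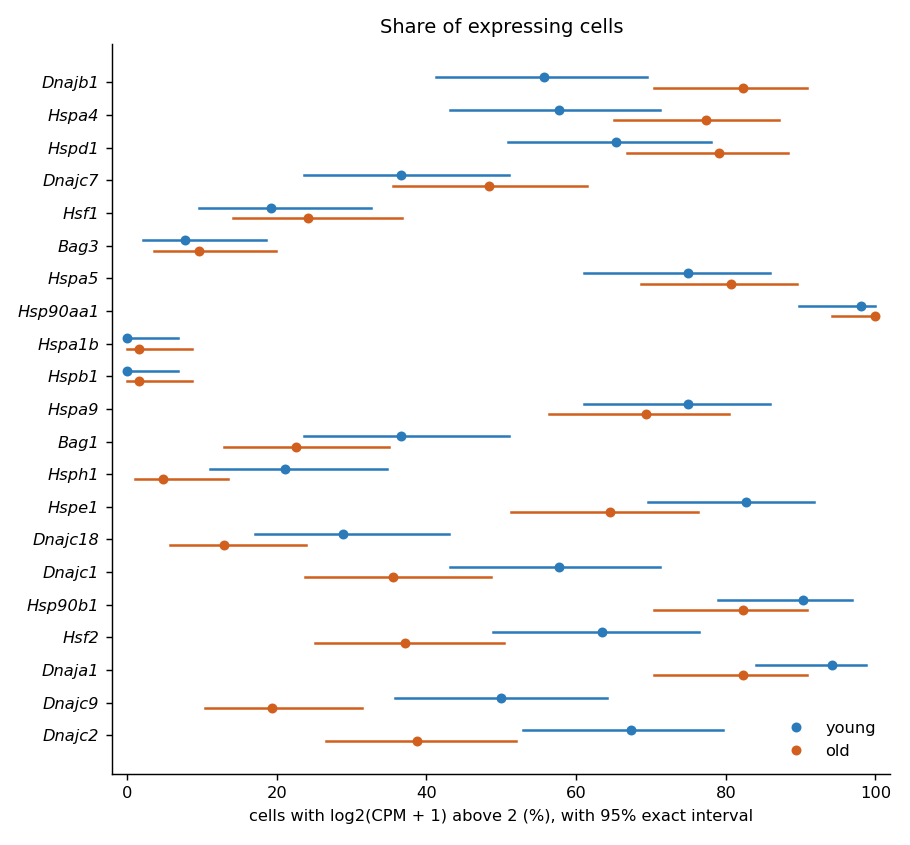
Share of young (blue, of 52) and old (orange, of 62) cells with log2(CPM + 1) above 2, in percent, for 21 chaperone genes and regulators, with 95% exact intervals as bars that cover counting error only. The intervals are apart for *Dnajb1*, *Dnajc9* and *Dnajc2*, whereas *Hspa1b* and *Hspb1* are at 0 in young cells and at 1.61% in old cells.

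The 2 heat shock factors differed in level and direction. *Hsf2*, a heat shock factor active in development and stress (chr10:57483766-57513143), had a level of 0.00 at the lowest, 4.15 at the median and 10.34 at the highest in young cells, and 0.00, 0.99 and 8.48 in old cells. It was expressed in 63.5% of young cells (33 of 52, interval 49% to 76.4%) and 37.1% of old cells (23 of 62, interval 25.2% to 50.3%), with a difference of -1.44. The cells of the ages overlapped. The difference was -0.88 in the cells without cell cycle genes and -2.28 in the 27 young and 13 old cells with at least 1 of them. *Hsf1*, the main factor of the heat response, was expressed in 10 young (19.2%, interval 9.63% to 32.5%) and 15 old cells (24.2%, interval 14.2% to 36.7%), with a difference of 0.60 that did not reach the limit.

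The BAG family genes, whose products release substrates from HSP70, were expressed in a minority of cells. *Bag1* was expressed in 19 young and 14 old cells with mean levels of 1.81 and 1.19. *Bag3*, which is induced by HSF1, was expressed in 4 young (7.69%, interval 2.14% to 18.5%) and 6 old cells (9.68%, interval 3.63% to 19.9%), with means of 0.37 and 0.71.

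The heat-inducible genes did not share a pattern. Of the 6 with values (*Hspa1b*, *Hsph1*, *Dnajb1*, *Hsp90aa1*, *Hspb1* and *Bag3*), 1 was called higher and 0 lower, with a median difference of 0.12 and a range from -0.89 to 2.08, against 3.91% and 4.49% of all genes called higher and lower. *Dnajb1* was thus high in old cells beside *Hspa1b*, *Hspb1* and *Bag3* at low shares at both ages and *Hsph1* with a lower share in old cells. Of the 10 members of the endoplasmic reticulum 0 were called higher and 2 lower (median 0.30), and of the 8 of the mitochondria 1 higher and 0 lower (median -0.26). In sets of this size 1 gene alone is a larger share than either percentage.

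Levels of different genes were compared per kilobase of exon. The length was that of all annotated exons of a gene merged, not that of the transcript expressed, so the order is approximate. *Hspa8* and *Hsp90ab1* (1140 CPM in young and 1079 CPM in old cells) stood above *Hsp90aa1* (283 and 255 CPM). Next in young cells came *Dnaja1* (138 CPM), *Hsp90b1* (134 CPM) and *Hspe1* (132 CPM), and in old cells *Hspd1* (162 CPM), *Hspa9* (97.9 CPM) and *Dnajb1* (95.2 CPM). *Dnajb1* had 40.6 CPM and *Hspa9* 80.1 CPM per kilobase in young cells, and *Dnaja1* had 72.9 CPM in old cells. The order below the 3 leading genes was thus different at each age.

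**Figure D5:**
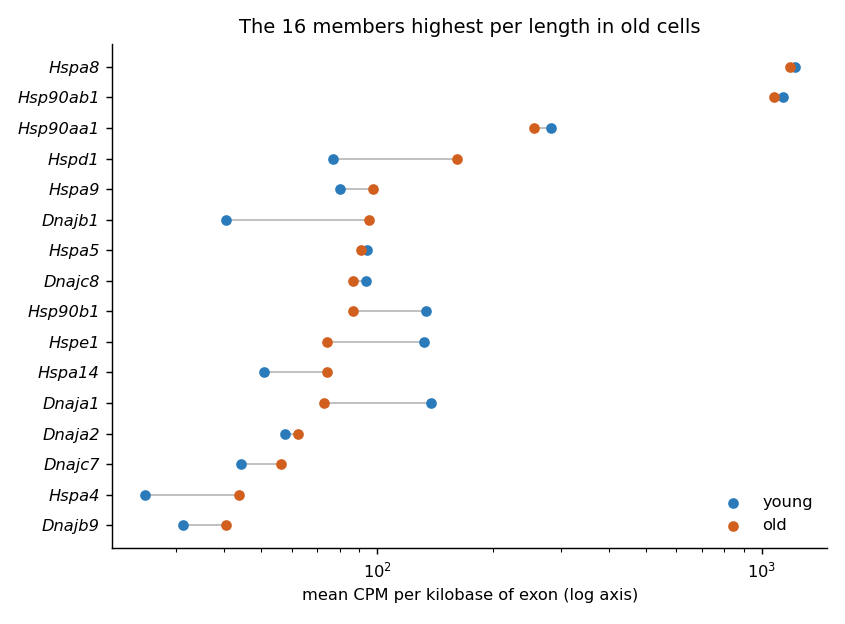
Mean CPM per kilobase of exon (log axis) of the 16 chaperone genes highest in old cells, for 52 young (blue) and 62 old (orange) cells of 1 mouse each, with a line joining both ages. *Hspa8* and *Hsp90ab1* lie above 1000 at both ages, and *Hspd1* goes from 77.0 to 162 while *Dnaja1* goes from 138 to 72.9.

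Genes that work with these chaperones were examined from lists of known function, and each count is to be read against the 3.91% of all genes that were higher and the 4.49% that were lower by at least 1, with a median of -0.02. Of 19 HSP90 and HSP70 co-chaperones, 0 were higher and 2 lower (10.5%) by at least 1, with a median difference of -0.20. These were *Trap1*, the mitochondrial HSP90 (mean levels 6.17 and 4.11), and *Stip1*, which links HSP70 to HSP90 (3.94 and 2.59). Of 9 nucleotide exchange factors none was called in either direction. Of 14 subunits of the cytosolic chaperonin TRiC and of prefoldin, which fold actin and tubulin, 0 were higher and 4 (28.6%) lower (*Cct7* -1.21, *Tcp1* -1.15, *Cct5* -1.06 and *Cct4* -1.02), with a median of -0.66. This median was below that of all genes and below the 0.07 of the 67 members, whose sign depended on the processing. Neither these lists nor those below were compared in the cells without cell cycle genes. Among the genes that at least 10% of the cells expressed, 6.98% were lower by at least 1.

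Of 17 genes of the endoplasmic reticulum stress response 2 (11.8%) were higher, the transcription factor *Atf4* (4.06 and 5.96) and the oxidoreductase *Pdia3* (5.52 and 6.85), and 1 (5.88%) was lower, the lectin chaperone *Calr* (6.39 and 5.29), with a median of -0.12. Of 8 mitochondrial proteases and stress genes 0 were higher and 2 (25%) lower, the protease *Yme1l1* (8.01 and 6.11) and the unfoldase *Clpx* (2.70 and 1.56), with a median of -0.58. *Hsp90b1* and *Calr*, both chaperones of the endoplasmic reticulum, were lower in old cells, whereas *Pdia3* was higher and *Hspa5* was not called. Of the 17 genes of the stress response, 8 had a higher and 9 a lower mean level in old cells.

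Chaperone genes showed little joint variation between cells of 1 age. Over the 91 pairs of the 14 members expressed in at least 50% of the cells of both ages, Spearman's rho ran from -0.38 to 0.42 with a median of 0.04 in 52 young cells, and from -0.25 to 0.29 with a median of 0.03 in 62 old cells. The cells of 1 age came from 1 mouse and differ in depth. A rho of this size in sparse counts is given as a description only.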

How the data were processed

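RNA of single HSCs was sequenced as 51 bp reads. The authors mapped them to mm10 with TopHat2 2.0.10, keeping 1 alignment per read, and deposited read counts per RefSeq gene and cell, without normalization, for 135 cells. Whether strand was used is not given in the sources used here. The values per cell of the study's mapping table were held to its limits (at least 500000 mapped reads and 3000 genes at an RPKM of 1 or more, and at most 10% mitochondrial reads), which left 114 cells. The median cell had 2798990 (young) and 2116024 (old) counted reads.

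Levels are log2(CPM + 1), with a pseudocount of 1 CPM and no filter on low values beyond 1 read in any cell used. Because each age was 1 mouse, no test was run. Differences of mean levels, shares of expressing cells (exact Clopper-Pearson intervals) and summed counts were computed in Python 3.11.15 with pandas 2.3.3 and scipy 1.17.1. The reads carry no molecular identifiers. Alternatives used all cells, deeper cells, cells without cell cycle genes, a pseudocount of 0.1, ratios of summed counts, factors of edgeR 4.0.16 and DESeq2 1.42.0 (R 4.3.3), thinning to 250000 reads, a limit of 1 read for an expressing cell and a filter at 10% of cells. Exon lengths came from the GENCODE vM21 basic annotation and positions and promoters from RefSeq. Only the calls of differences in mean level were tried on simulated counts, with known changes, and the outcome is not reported here. The intervals, correlations and motif searches were not tried in this way.

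The members and the lists of genes were chosen with earlier results of these data known. The members named in full were those with a difference of at least 1 in size, those with the 5 largest rises and 5 largest falls, those whose intervals did not overlap, and a list of well-known chaperones, with at most 4 genes from each other list. Further members are named to account for all 67, and their values were seen before. *Hspa1a* and *Hspa1l* were not analysed here. A further marker gene is not reported here.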

Additional observations from a re-analysis of the deposited data

How the results depend on the processing

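The 4 members higher in old cells became 7 in cells without cell cycle genes, 7 with a pseudocount of 0.1 CPM and 13 by summed counts, and the 7 lower members became 4, 12 and 14. All 61 young and 74 old cells, and cells with at least 1000000 mapped reads, gave 3 higher members, without *Dnajc7* (0.50 and 0.88). All cells, TMMwsp factors and thinning gave 6 lower members, and in the deeper cells *Dnajc18* (-0.95) left the lower members and *Hspe1* (-1.10) joined them. Of all genes, 7.75% were higher and 4.29% lower in cells without cell cycle genes, and 8.21% and 10.9% with a pseudocount of 0.1 CPM. By summed counts 21.6% of all genes were higher and 21.6% lower. These shares were 3.53% and 3.90% in all cells, and 3.80% and 4.93% with at least 1000000 mapped reads. They were 4.18% and 4.07% with TMMwsp factors, and 3.98% and 4.79% after thinning. In the cells without cell cycle genes (25 young and 49 old), *Dnaja2*, *Dnajc19*, *Hspa14* and *Hspa9* joined the higher members and *Dnajc7* left them, while *Dnajc11* joined the lower members and *Dnajc9*, *Dnajc18*, *Hsf2* and *Hsp90b1* left them. Of the shares with separate intervals, the 1 higher member became 0 with at least 1000000 mapped reads and 0 with 1 read as the limit, and the 2 lower members became 1 in all cells, which was *Hsf2*, and 0 without cell cycle genes. With 1 read as the limit the 2 lower members were *Dnajc2* and *Hsph1*. The share of all genes with separate intervals was not computed under these alternatives. Apart from the alternatives' own construction, the cause was not tested.

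Of 231 values of the 29 named members under these alternatives, 206 moved by less than 1.5-fold and 25 by more, and no called value changed sign, whereas values of the 7 uncalled genes *Dnaja2*, *Dnajb9*, *Dnajb11*, *Dnajc3*, *Hsp90aa1*, *Hspa8* and *Hspa9* did under at least 1 of them. An alternative chosen after seeing the data left out the cell of each age with most reads, for mean levels and for ratios of summed counts. Of its 56 values 48 moved by less. The 8 that moved by more were all ratios of summed counts, set against differences of mean levels. The median over the members lay between -0.10 and 0.10. No replicate could be left out, since each age was 1 mouse. No paired analysis was possible because the ages share no animal and well positions pair no cells. The correlation of *Hspa1a* with *Hspa1b* was not run. Depth limits genes such as *Hspa1b* and *Hspb1*, for which an absence in young cells cannot be told from a share of up to 5.77% (6.85% by the exact interval).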

Other observations

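The differences of 32 of the 67 members had opposite signs in cells with and without cell cycle gene expression. Of these, only *Hspa9* and *Dnaja2* were at least 1 in size in both sets. How many of all genes did either was not computed, and the set with cell cycle gene expression held only 13 old cells. These 2 members were chosen after their values were seen. *Hspa9*, the mitochondrial HSP70, had a mean level of 6.43 (27 young cells) and 4.26 (13 old cells) where at least 1 of the 4 cell cycle genes was expressed, and of 4.06 (25 young cells) and 5.10 (49 old cells) where none was. *Dnaja2* had mean levels of 4.85 and 3.07 in the first set and of 2.85 and 4.27 in the second. *Hspd1*, by contrast, was higher in old cells in both sets, with mean levels of 5.62 and 6.98 where a cell cycle gene was expressed and 3.97 and 6.20 where none was. *Dnaja1* was lower in old cells in both sets, with 8.29 and 6.79 in the first and 8.19 and 6.59 in the second.

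Single cells held most of the reads of several low members. For *Dnajb2*, 1 young cell held 85.2% of the young reads and 1 old cell 65.4% of the old reads. For *Dnaja4* these shares were 66.8% and 89.7%. For *Hspa13* they were 64.2% and 33.3%, so that 1 cell held most of its reads in young cells only. *Hspb6* had 1204 of its 1207 young reads in 1 cell. *Hspb7* was the opposite case, with 436 young reads of which the highest cell held 5.96% and 433 old reads of which it held 8.08%.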
